A study of Arabidopsis thaliana with 6 samples.

Results

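A set of 10 genes of Arabidopsis thaliana whose products make or inactivate the hormone auxin is described here: the synthesis genes TAA1, TAR2, YUC2, YUC8 and YUC9 and the conjugating genes GH3.1, GH3.3, GH3.5, GH3.6 and GH3.17. They were chosen by function, by their locus identifiers, with earlier results of these data known. They are 10 of the 33617 genes in the deposited table. Genes with fewer than 60 fragments (sequenced pieces of RNA assigned to a gene) over the 6 libraries counted as unmeasured, which left 5 measured genes, TAA1, YUC8, YUC9, GH3.5 and GH3.17. Messenger RNA came from whole seedlings, 7 days old, grown at 23 °C on MS medium under long days without treatment. One genotype was cog1-2D, an activation-tagging mutant of the dominant kind, named for COG1, a gene for a Dof-type transcription factor, and the other was the wild type Col-0, labelled wt. Each genotype has 3 libraries, numbered 0, 1 and 2. The labels describe a single mutant line and do not say how many seedlings were pooled or whether libraries came from separate cultures, so p-values measure the spread between these samples only, which may be technical.

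Auxin (indole-3-acetic acid, IAA) is made from tryptophan mainly by a short route: the aminotransferase TAA1 and its relatives such as TAR2 form indole-3-pyruvate, and the YUCCA flavin monooxygenases turn it into IAA, the step generally taken to limit the rate. GH3 enzymes of the auxin-conjugating group then join IAA to amino acids, which removes it from the active pool. In seedlings, TAA1, YUC8 and YUC9 are known for their part in stem elongation in shade or warmth, where PIF transcription factors raise YUC8 and YUC9, and several GH3 genes are themselves switched on by auxin.

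In cog1-2D, the 3 measured synthesis genes were higher and the 2 measured GH3 genes lower than in wt. YUC8 rose by a log2 fold change of 1.33 ± 0.21 (SE, with n = 3 libraries of each genotype) and YUC9 by 0.92 ± 0.19, which are 2.52 and 1.89 times the wt level. TAA1 rose by 0.38 ± 0.12. GH3.5 fell by 0.58 ± 0.08 and GH3.17 fell by 0.26 ± 0.05. All 5 passed the quasi-likelihood test of edgeR, taking an adjusted p (Benjamini-Hochberg) below 0.05 over all 10347 genes tested, where 36.3% of genes passed, 16.3% higher and 20.0% lower. In CPM, which scales fragments by library size and TMM factor, the genotypes did not overlap in any of the 5, against 49.8% of tested genes (24.3% higher in cog1-2D, 25.5% lower). Since the genes were chosen with earlier results of these data known, their counts beside these shares are a description, not independent support. The TAA1 difference did not pass in every setting, as given below.

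The libraries held 10575945 to 11202122 fragments assigned to genes. COG1, on the minus strand of the reference, had 0, 3 and 3 fragments in cog1-2D and 0 in every wt library, so the genotype labels could not be checked through it. Genes of the minus strand were almost unmeasured in all 6 libraries: 1.16% of protein-coding minus-strand genes reached 60 fragments, against 72.0% on the plus strand. wt replicate 1 stood apart, with 0.0301% of fragments on minus-strand genes against 0.139% to 0.169% elsewhere. cog1-2D replicate 2 stood apart in seed storage markers, with a summed level of 35.4 CPM over 4 genes against at most 2.35 CPM in any other library. Nearly all of it was CRC, a cruciferin storage protein gene, with 369 fragments there and 0 to 10 in the others. Results for the 5 measured genes are therefore given with and without these libraries. In bulk samples, fewer cells of a type and less RNA per cell cannot be told apart.

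The strand divided the 10 genes exactly. TAA1, YUC8, YUC9, GH3.5 and GH3.17 lie on the plus strand, and TAR2, YUC2, GH3.1, GH3.3 and GH3.6 on the minus strand. TAR2, an aminotransferase gene related to TAA1, had 1, 0 and 1 fragments in wt replicates 0, 1 and 2 and none in cog1-2D. YUC2, a YUCCA gene known from leaves and flowers, had 0 in every library, as did GH3.3, an auxin-inducible GH3 gene. GH3.1, of the same kind, had 1 fragment in wt replicate 0 and none elsewhere. GH3.6 (also DFL1) had 6, 2 and 3 fragments in wt and 2, 6 and 3 in cog1-2D, so neither genotype stood higher. A count of 0 over a genotype allows up to 0.0919 CPM in wt and 0.0929 CPM in cog1-2D, taking 3 fragments over the summed group as the floor and covering counting error only. On this strand such a limit holds for what was counted, not for the RNA in the seedlings, so none of these 5 genes can be called silent or unchanged. None of the 10 genes overlaps another annotated gene in the TAIR10.1 annotation.

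**Figure D1:**
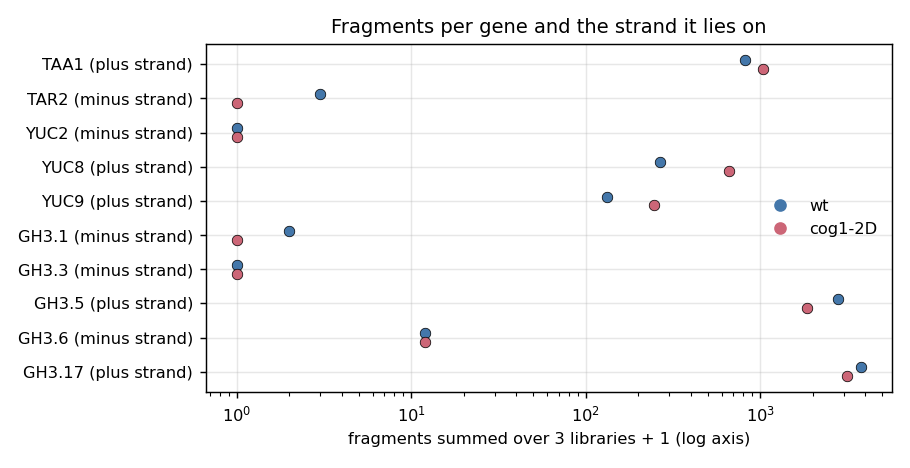
Fragments of each of the 10 genes summed over the 3 libraries of a genotype, plus 1, on a log axis, with the strand of each gene in the label. The 5 plus-strand genes lie between 131 fragments (YUC9 in wt) and 3787 (GH3.17 in wt), and the 5 minus-strand genes at 11 or fewer.

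Levels between genes were compared in FPKM, the authors' fragments scaled by transcript length and library size. In wt the order was GH3.17 (53.8 ± 2.6 FPKM, SD, n = 3), GH3.5 (39.0 ± 2.0), TAA1 (18.1 ± 1.0), YUC8 (5.18 ± 0.27) and YUC9 (2.74 ± 0.49), and no neighbours in that order overlapped. In cog1-2D the order was the same, but GH3.5 (26.3 ± 2.9 FPKM) and TAA1 (23.7 ± 4.1) overlapped, while GH3.17 (45.2 ± 1.6), YUC8 (13.1 ± 4.0) and YUC9 (5.20 ± 0.97) stood clear of their neighbours.

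TAA1 (AT1G70560, chromosome 1, 26604855 to 26607652, plus strand, TAIR10.1) encodes the tryptophan aminotransferase of the pathway's opening step. Its level was 19.0, 17.0 and 18.2 FPKM in wt replicates 0, 1 and 2 and 19.4, 24.0 and 27.6 FPKM in cog1-2D. The lowest cog1-2D library, replicate 0, lay just above the highest wt library, so the groups did not overlap but nearly met. The log2 fold change was 0.38 ± 0.12 with an adjusted p of 0.0370 in edgeR's test. TAA1 no longer passed when cog1-2D replicate 2 was left out, the library with the storage protein transcripts (0.26, edgeR's adjusted p = 0.119), and without cog1-2D replicate 1 (0.37, edgeR's adjusted p = 0.102). It was also lost without wt replicate 1, the library low in minus-strand fragments (0.33, edgeR's adjusted p = 0.0981), and without wt replicate 2 (0.39, edgeR's adjusted p = 0.0739). Limma on log2(FPKM + 1) did not call it either (0.36, limma's adjusted p = 0.0618). The direction held in each of the 17 alternatives.

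YUC8 (AT4G28720, chromosome 4, 14192569 to 14194302, plus strand) and YUC9 (AT1G04180, chromosome 1, 1104493 to 1106241, plus strand) encode flavin monooxygenases that convert indole-3-pyruvate to IAA. YUC8 stood at 5.02, 5.03 and 5.48 FPKM in wt and at 9.80, 11.9 and 17.6 FPKM in cog1-2D replicates 0, 1 and 2. Each cog1-2D library was well above every wt library, and replicate 2 was the highest, as it was for TAA1. The rise of 1.33 ± 0.21 had an adjusted p of 0.00106 in edgeR's test. Without cog1-2D replicate 2 it was 1.06 (edgeR's adjusted p = 0.00069), so the gene passed with that library left out, at a smaller size. Without wt replicate 1 it was 1.31 (edgeR's adjusted p = 0.00404). Only 183 of the 10347 tested genes, 1.77%, had a higher log2 fold change.

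YUC9 stood at 2.22, 3.184 and 2.81 FPKM in wt and at 4.59, 6.31 and 4.70 FPKM in cog1-2D. The groups did not overlap, and here replicate 1, not replicate 2, was the highest of cog1-2D. The rise of 0.92 ± 0.19 had an adjusted p of 0.00547 in edgeR's test and rested on 131 fragments in wt and 245 in cog1-2D. It was 0.99 without cog1-2D replicate 2 (edgeR's adjusted p = 0.0113) and 1.04 without wt replicate 1 (edgeR's adjusted p = 0.00673). Depth limits this gene most: the SD between wt libraries was 16.9% of the mean CPM, where counting error alone gives 15.1%. Between cog1-2D libraries the SD of YUC9 was 18.6%, against 11.1% from counting. For YUC8 in cog1-2D the SD was 30.4% against 6.75% from counting, so those libraries differed among themselves by more than counting.

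The coding sequences of YUC8 and YUC9 are 71.9% identical, with a longest shared run of 23 bases. YUC9 and YUC5 are closer, at 80.5% identity and a longest shared run of 42 bases. YUC5 lies on the minus strand and had 2 fragments in all. How the authors' counting treated fragments that match several genes is not given in the sources used here.

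The promoters of both YUCCA genes and of GH3.5, the 3 measured genes with the largest changes, are printed to show where short motifs of known auxin and light factors fall. Each is the 250 bases before the annotated gene start in RefSeq's TAIR10.1 assembly, plus strand, 5′ to 3′, with capitals marking CACATG, an E-box known to be bound by PIF proteins, or TGTCTC, the auxin response element bound by ARF proteins. The windows are chr4:14192319-14192568 for YUC8, chr1:1104243-1104492 for YUC9 and chr4:13653329-13653578 for GH3.5, and no other annotated gene lies in them.
YUC8: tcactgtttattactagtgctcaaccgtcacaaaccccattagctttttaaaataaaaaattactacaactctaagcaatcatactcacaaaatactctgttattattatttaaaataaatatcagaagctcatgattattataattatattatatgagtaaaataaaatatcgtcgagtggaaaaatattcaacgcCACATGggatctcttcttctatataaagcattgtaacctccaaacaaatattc
YUC9: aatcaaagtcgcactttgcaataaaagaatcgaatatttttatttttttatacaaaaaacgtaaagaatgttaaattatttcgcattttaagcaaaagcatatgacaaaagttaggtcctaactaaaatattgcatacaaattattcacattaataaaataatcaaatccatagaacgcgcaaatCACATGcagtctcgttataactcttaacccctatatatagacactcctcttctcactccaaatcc
GH3.5: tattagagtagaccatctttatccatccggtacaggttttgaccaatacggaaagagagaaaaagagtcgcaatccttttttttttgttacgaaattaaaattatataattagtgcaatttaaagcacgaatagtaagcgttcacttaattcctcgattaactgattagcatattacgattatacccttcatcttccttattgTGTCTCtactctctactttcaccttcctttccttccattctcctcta

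In YUC8 the CACATG begins 53 bases before the start and in YUC9 it begins 65 bases before it, in the same orientation. On either strand, 11.1% of 27443 nuclear protein-coding promoters of this length hold CACATG. In GH3.5 the TGTCTC begins 47 bases before the start, and 3004 of them, close to the same share, hold it. CACGTG, the G-box, was in none of the 10 promoters (6.49% of all), nor was TGTCGG, a variant auxin response element (4.16% of all). The promoters of TAA1 and GH3.17 held neither CACATG nor TGTCTC in this window. Among the unmeasured genes, YUC2 and GH3.3 each held both motifs, counting either strand, and TAR2, GH3.1 and GH3.6 held neither. The motifs therefore do not divide the synthesis genes from the GH3 genes. AAAG, the core recognised by Dof proteins, is in 98.0% of all promoters and so says nothing about these genes. These matches are letters in a window, not sites shown to be bound.

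GH3.5 (AT4G27260, chromosome 4, 13653579 to 13656285, plus strand) encodes an enzyme that conjugates IAA and also salicylic acid. Its level was 39.6, 40.7 and 36.8 FPKM in wt and 29.6, 24.8 and 24.4 FPKM in cog1-2D. All 3 cog1-2D libraries were below all 3 of wt, and cog1-2D replicate 0 was the nearest to them. The fall of 0.58 ± 0.08 on the log2 scale, to 0.670 of the wt level, had an adjusted p of 0.000663 in edgeR's test and rested on 2804 fragments in wt and 1850 in cog1-2D. Without cog1-2D replicate 2 the log2 fold change was -0.53 (edgeR's adjusted p = 0.0036), and without wt replicate 1 it was -0.55 (edgeR's adjusted p = 0.00275). Its coding sequence is 84.1% identical to that of GH3.6, with a longest shared run of 42 bases. Among tested genes, those whose log2 CPM pattern over the 6 libraries lay closest to GH3.5 (Euclidean distance after centring each gene) were AT3G59200, an F-box family gene, at 0.0662, RUP1, a WD40-repeat gene known as a repressor of UV-B signalling, at 0.108, and UMAMIT20, a transporter family gene, at 0.121. The median distance of all tested genes was 0.847. These 3 were picked as the nearest, so their lying below that median follows from the choice.

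GH3.17 (AT1G28130, chromosome 1, 9825169 to 9828118, plus strand) encodes a GH3 enzyme known to prefer glutamate as the partner of IAA. It was the most abundant of the measured genes, with 51.7, 56.7 and 53.1 FPKM in wt and 44.5, 47.0 and 44.0 FPKM in cog1-2D. The groups did not overlap, and the libraries within each were close, with an SD of 3.97% of the mean CPM in wt and 3.57% in cog1-2D. The fall of 0.26 ± 0.05, to 0.837 of the wt level, had an adjusted p of 0.00601 in edgeR's test. It was -0.24 without cog1-2D replicate 2 (edgeR's adjusted p = 0.0261) and -0.22 without wt replicate 1 (edgeR's adjusted p = 0.0237). Of all tested genes, 23.6% had a lower log2 fold change, so in size this was an ordinary difference in these libraries.

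**Figure D2:**
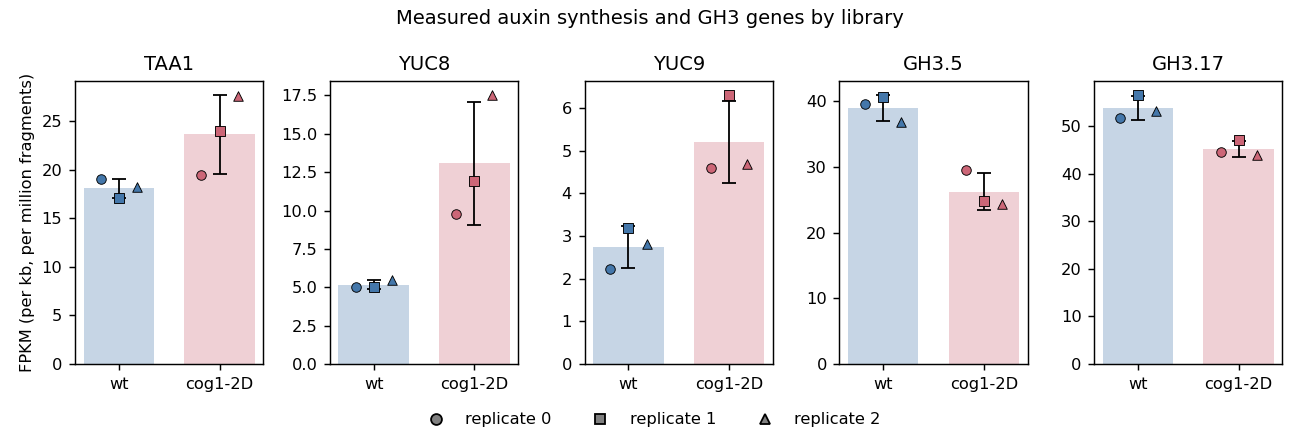
FPKM of the 5 measured genes in each library, with bars at the mean of 3 libraries, error bars of 1 SD and markers by replicate number. YUC8 and YUC9 are higher in every cog1-2D library, TAA1 at 19.4 FPKM in cog1-2D replicate 0 nearly meets the highest wt library at 19.0, and GH3.5 and GH3.17 are lower in every cog1-2D library.

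Ratios between genes of the same library do not depend on how libraries are scaled, and they are given as a description with no test. YUC8 over TAA1, in FPKM, was 0.264, 0.295 and 0.302 in wt and 0.504, 0.497 and 0.637 in cog1-2D, so the monooxygenase gene gained on the aminotransferase gene in each mutant library. YUC8 over YUC9 was 2.26, 1.58 and 1.95 in wt and 2.14, 1.89 and 3.74 in cog1-2D, and the groups overlapped. GH3.17 over GH3.5 was 1.31, 1.39 and 1.44 in wt and 1.51, 1.89 and 1.81 in cog1-2D, with no overlap, since GH3.5 had the larger fall. The widest shift was in YUC8 over GH3.5, a mean of 0.133 ± 0.0138 in wt and 0.511 ± 0.196 in cog1-2D (SD, n = 3). TAA1 over GH3.5 was 0.464 ± 0.0399 in wt and 0.919 ± 0.240 in cog1-2D, also with no overlap. The ratios of YUC8 and TAA1 to GH3.5 had to separate, since those genes were higher and GH3.5 lower in every cog1-2D library. Their separation therefore restates the single-gene results.

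**Figure D3:**
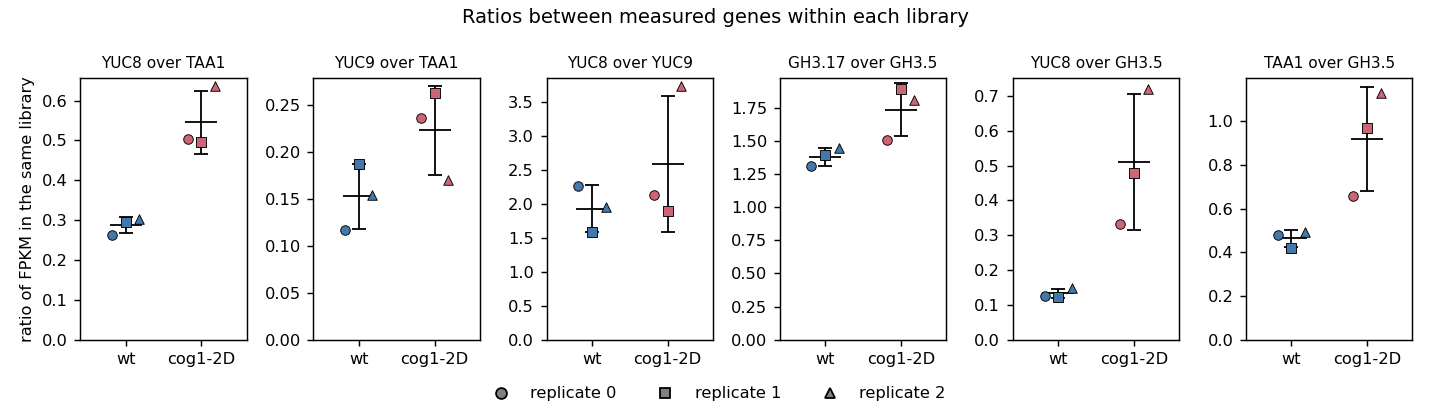
Ratios of FPKM between pairs of measured genes within each library, with the mean and SD of 3 libraries and markers by replicate number. YUC8 over TAA1, GH3.17 over GH3.5, YUC8 over GH3.5 and TAA1 over GH3.5 separate the genotypes, while YUC9 over TAA1 and YUC8 over YUC9 overlap.

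The other genes of the pathway were followed in 8 lists with 82 genes, 36 of them tested and 39 of them minus-strand genes. In these lists 7 rose, 10 fell and 19 did not pass, with a median log2 fold change of -0.03, beside 1686 rises, 2066 falls and a median of 0.00 over all 10347 tested genes. Upstream of TAA1, 3 of 5 tested tryptophan synthesis genes fell and none rose, with a median of -0.25. Over all tested genes, 20.0% fell and 16.3% rose. PAT1, the anthranilate phosphoribosyltransferase gene, fell from 169 ± 12 to 83.2 ± 5.2 CPM (SD, n = 3), and AT2G04400, annotated as an aldolase-type TIM barrel protein, fell from 95.7 ± 5.2 to 56.2 ± 1.9 CPM. TSB2, a tryptophan synthase beta subunit gene, fell by 0.25 ± 0.09 on the log2 scale (edgeR's adjusted p = 0.0497), a call lost in 10 of 17 alternatives.

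Of 7 tested genes of other proposed routes to IAA, 5 fell and none rose, with a median of -0.34. The shares over all tested genes were 20.0% lower and 16.3% higher. CYP79B2, a cytochrome P450 gene that makes indole-3-acetaldoxime, which also feeds indole glucosinolates, fell from 120 ± 12 to 56.3 ± 1.9 CPM. NIT4, a nitrilase gene known mainly for cyanide detoxification, fell from 42.8 ± 4.5 to 11.3 ± 0.78 CPM. NIT2 fell by 0.49 ± 0.10 and NIT3 by 0.34 ± 0.08 on the log2 scale, and the fifth, which also passed and is named after its values were seen, was CYP79B3. NIT1, NIT2 and NIT3 have coding sequences 86.1% to 91.4% identical, so the values of NIT2 and NIT3 are uncertain where the counting could have split fragments.

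Among the other TAA and YUC genes, 2 of 11 were tested, AT1G34040 and YUC3. AT1G34040, annotated as a pyridoxal phosphate-dependent transferase, fell from 19.8 ± 0.28 to 7.01 ± 0.69 CPM, against the direction of TAA1. YUC3, named after its values were seen as the remaining tested YUCCA gene, had 2.86 ± 1.4 CPM in wt and 3.2 ± 0.59 in cog1-2D and did not pass (log2 fold change 0.13 ± 0.33, edgeR's adjusted p = 0.789).

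The other GH3 genes went both ways: of 6 tested, 2 rose, 1 fell and 3 did not pass, beside 16.3% higher and 20.0% lower over all tested genes. GH3.2, an auxin-inducible IAA-conjugating enzyme gene, rose by 0.49 ± 0.13, from 10.8, 12.2 and 15.2 CPM in wt to 17.6, 17.9 and 17.7 CPM in cog1-2D (edgeR's adjusted p = 0.0149). That is the direction opposite to GH3.5 and GH3.17, and the call was lost without cog1-2D replicate 1 (0.48, edgeR's adjusted p = 0.0504) and in limma on log2(FPKM + 1) without a filter (limma's adjusted p = 0.0725). The coding sequence of GH3.2 is 90.9% identical to that of GH3.4 and 80.9% to that of GH3.3. Both lie on the minus strand and had 0 fragments, so the level of GH3.2 is uncertain where fragments match several genes. PBS3, whose enzyme acts in salicylic acid synthesis, rose by 1.03 ± 0.33, although the genotypes overlapped, and its call was lost in 7 of 16 alternatives. AT5G13370, annotated as an auxin-responsive GH3 family protein, fell by 0.87 ± 0.12. Its neighbour AT5G13360 has a coding sequence 89.4% identical to it, so fragments could have been split between them.

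No call was made among the genes of other inactivation routes or of IAA release. UGT74D1, an IAA glucosyltransferase gene and the single one tested of 6 genes of other inactivation routes, had a log2 fold change of -0.04 ± 0.05 (edgeR's adjusted p = 0.632). Of 7 tested genes that release IAA from conjugates or from indole-3-butyric acid, 0 passed edgeR's test, and 0 had an unadjusted p under 0.05. Over all tested genes, 36.3% passed. The nearest were ILL1 (0.13 ± 0.06, edgeR's adjusted p = 0.132) and ILR1 (-0.26 ± 0.12, edgeR's adjusted p = 0.133), both amidohydrolase genes. DESeq2 called 0 of them.

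Of 4 tested regulators known to act on YUC genes or TAA1, PIF3, a light-regulated bHLH factor gene, rose from 36.4 ± 3.0 to 48.0 ± 3.7 CPM and the others did not pass. PIF4, named after its values were seen as the PIF gene best known upstream of YUC8, had 232 ± 29 CPM in wt and 260 ± 13 in cog1-2D (0.17 ± 0.09, edgeR's adjusted p = 0.159). The other PIF genes of the list, PIF1, PIF5 and PIF7, lie on the minus strand and were not tested. The auxin response list held 8 genes of the Aux/IAA family, early auxin-induced repressors, and not the whole family. It was chosen with earlier results known. All 4 tested genes of this list rose, beside 16.3% of all tested genes. IAA29 rose from 2.43 ± 0.47 to 10.3 ± 1.2 CPM, IAA19 from 15.8 ± 2.3 to 32.0 ± 3.5, IAA4 from 134 ± 16 to 185 ± 20 and IAA1 from 29.8 ± 7.3 to 47.3 ± 9.8. The IAA1 call was lost in 7 of 17 alternatives. Without cog1-2D replicate 2, IAA29 rose by 2.06 and IAA19 by 1.09 (edgeR's adjusted p = 0.000289 and 0.0006).

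**Figure D4:**
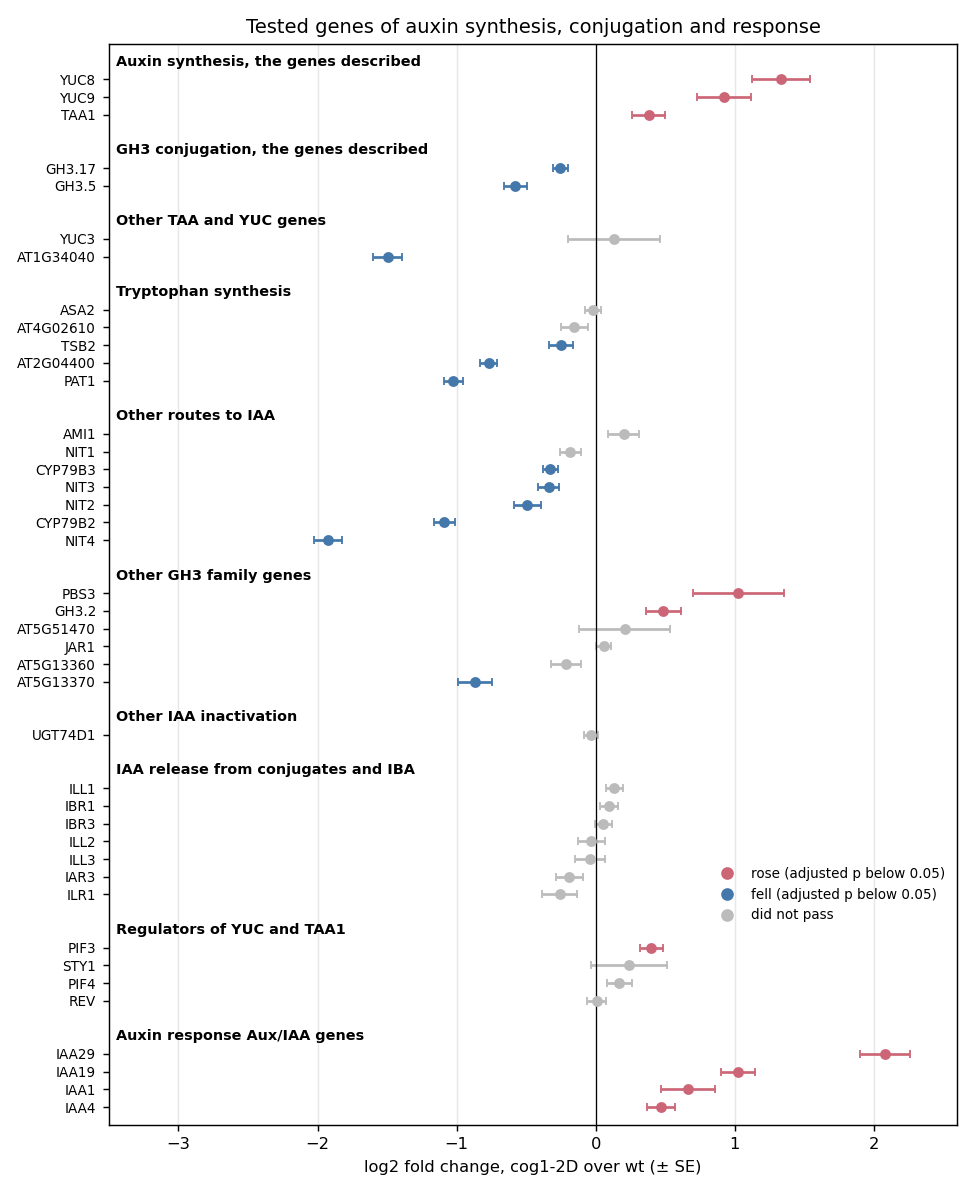
Log2 fold changes of cog1-2D over wt with their SE for the tested genes of the pathway, grouped by role and coloured by the outcome of edgeR's test. Measured YUC8, YUC9 and TAA1 and the 4 Aux/IAA genes lie to the right, GH3.5, GH3.17 and most tested tryptophan and alternative-route genes to the left, and the conjugate-release genes around 0.

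Calls among tissue markers stand beside 36.3% of all tested genes that passed, 16.3% higher and 20.0% lower. With so few markers, the counts cannot decide whether the share of tissues changed, and this was not tested. Of 7 tested root markers, 3 fell, HKT1 (-1.47 ± 0.15), TIP2;2 (-0.33 ± 0.09) and SCR (-0.30 ± 0.09), and 4 did not pass. Those 4 also lay below 0: PLT2 (-0.54 ± 0.32), SHR (-0.21 ± 0.09), PLT1 (-0.16 ± 0.26) and NRT2.1 (-0.04 ± 0.26). The summed level of the 11 genes ran from 365 to 401 CPM in wt and from 275 to 332 CPM in cog1-2D, without overlap. Most of this sum was TIP2;2, and WER was at 0 in every library. TIP2;2 and SCR each lost their call in 4 of 17 alternatives, both of them without cog1-2D replicate 2 (edgeR's adjusted p = 0.0761 and 0.0873). Of 8 tested green tissue markers, SBPASE fell (-0.25 ± 0.07) and 7 did not pass. Of the 8, 5 lie on the minus strand, and each of these was lowest in wt replicate 1. RBCS1A, for example, had 8.93 CPM there against 48.2 and 53.7 CPM in wt replicates 0 and 2. The SE of their log2 fold changes ran from 0.37 to 0.45, so not passing says little about these 5. The SBPASE call was lost in 6 of 17 alternatives. The summed level of the 8 green markers ran from 33318 to 40826 CPM in wt and from 39255 to 40531 CPM in cog1-2D, lowest in wt replicate 0. Most of this sum was LHCB1.3 (20168 to 25475 CPM over all libraries) and LHCB3 (10677 to 13142 CPM), so it mainly describes these antenna genes. The part of these markers in the results for the 10 genes was not tested.

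In the authors' deposited table of Cuffdiff results, which lists genes called significant, 4 of the 5 tested genes described here appear, against 29.6% of all genes tested, and none of the 5 untested ones does. The authors' deposited table gives log2 fold changes of 1.34 for YUC8 (q = 0.000349), 0.93 for YUC9 (q = 0.000349), 0.39 for TAA1 (q = 0.00781) and -0.57 for GH3.5 (q = 0.000349). GH3.17 is not listed there, so its call rests on edgeR, and DESeq2, which called 24.1% of the genes it tested, also made it (adjusted p = 0.0109).

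**Figure D5:**
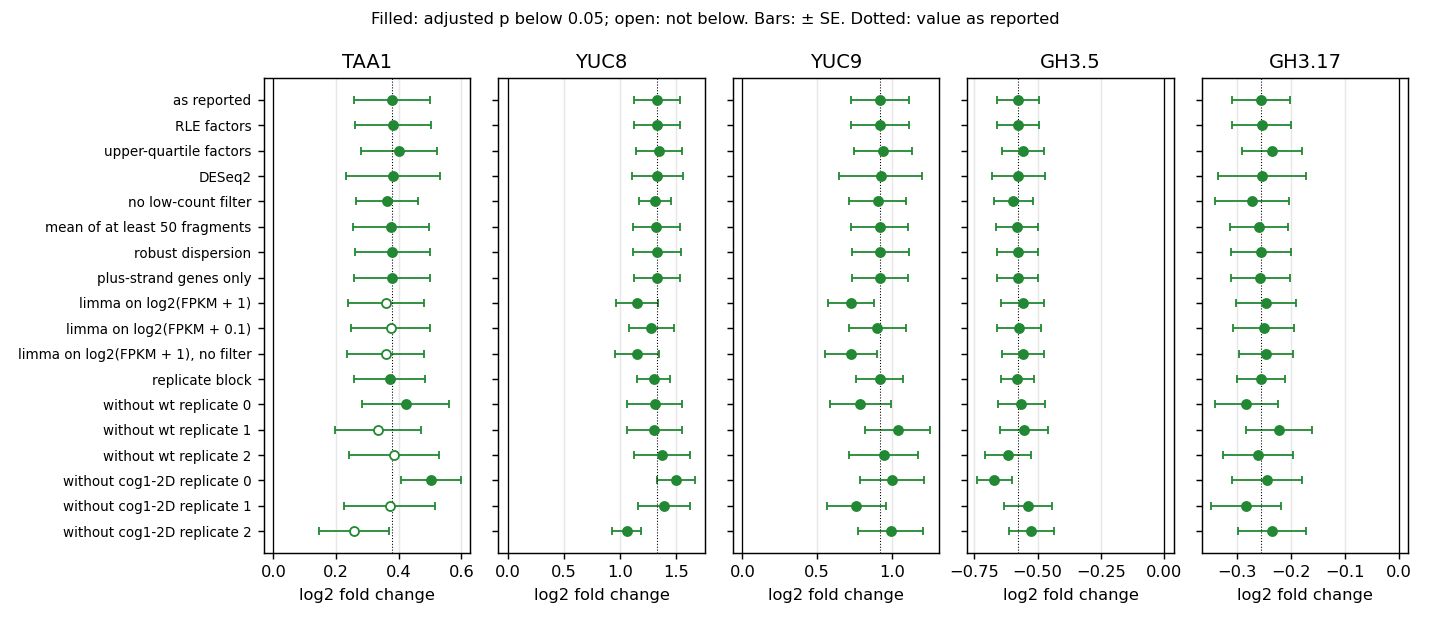
Log2 fold changes of the 5 measured genes under the reported setting and 17 alternatives, with SE. Filled points have an adjusted p below 0.05, and the 7 open points are all in the TAA1 panel, from 0.26 to 0.39.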

How the data were processed

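RNA of 6 libraries, 3 of cog1-2D and 3 of wt seedlings, was made into libraries with a TruSeq Stranded mRNA kit; the labels' protocols say so. The submitters' processing notes name Trimmomatic 0.36, HISAT2 2.1.0, Cufflinks 2.2.1 with Cuffdiff, and TAIR10; the strand setting is not given in the sources used here. The authors deposited an estimated count of fragments (expected counts, made with the tools above) and FPKM values per gene and library, and a table of genes with log2 fold changes and q-values.

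Estimated counts were rounded to whole numbers (98.1% were whole within 1e-06) and tested with edgeR 4.0.16 (R 4.3.3), using filterByExpr, TMM scaling, the quasi-likelihood test and Benjamini-Hochberg adjustment at 0.05 over 10347 genes. Cuffdiff needs the reads, so it was not rerun. The SE is the log2 fold change divided by the square root of F. Limma 3.58.1 on log2(FPKM + 1) or log2(FPKM + 0.1) and DESeq2 1.42.0 were among 17 alternatives. Libraries held 10575945 to 11202122 fragments, and the spread that counting alone gives is set beside the observed spread where it matters. The test was tried on simulated counts with known changes. Of the genes in the table, 32225 matched RefSeq's TAIR10.1 annotation. Promoters were read from that assembly. Coding sequences were aligned with MAFFT 7.526.

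The 10 genes and all lists were chosen with earlier results of these data known. Named in the text are all 10, up to 4 called genes per list with the largest change, or, in lists without a call, the 2 of smallest p, and the 3 genes nearest to the member with the smallest p; exceptions are marked.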

Additional observations from a re-analysis of the deposited data

How the results depend on the processing

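YUC8, YUC9, GH3.5 and GH3.17 kept their direction and passed in all 17 alternatives, with log2 fold changes of 1.06 to 1.5, 0.73 to 1.04, -0.67 to -0.53 and -0.28 to -0.22. TAA1 kept its direction (0.26 to 0.50) but lost its call in 7: in limma on log2(FPKM + 1) at 0.36 (adjusted p = 0.0618), on log2(FPKM + 0.1) at 0.37 (0.0620) and without a filter at 0.36 (0.119), and in 4 of the 6 settings that leave out a library, with adjusted p-values of 0.0739 to 0.119. The cause was not tested. Of the 10 genes, 4 to 5 passed in every setting. Over all genes, 2683 to 4093 passed, DESeq2 giving 2974 and the reported setting 3752. Of the genes in the 8 pathway lists that rose, 7 in the reported setting, 4 were left in limma on log2(FPKM + 1) without a filter, and 4 to 7 when a library was left out, with 4 without cog1-2D replicate 1. For 28 named genes, 428 of 475 values under alternatives kept their direction and call, 47 kept the direction and lost the call, and 0 reversed. Deviations of same-numbered libraries had correlations of -0.0146, -0.0162 and 0.106 across genes, and those of other pairs ran from -0.2005 to 0.1635. Pairing by number was thus not shown across genes, but these values cannot exclude it. With the replicate number as a block, 4093 genes passed, against 3752 without it. There TAA1 was at 0.37 (edgeR's adjusted p = 0.0369), YUC8 at 1.3, YUC9 at 0.92, GH3.5 at -0.58 and GH3.17 at -0.26. In the pathway lists 7 rose and 12 fell with this block. Counting error limits YUC9 most among the measured genes.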
